A study of Aspergillus niger with 6 samples.

Results

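Nitrate assimilation and ammonium incorporation were represented by 5 of the 15431 genes listed for Aspergillus niger, chosen by the An identifiers that the files list. The nitrogen genes were the nitrate transporter gene An08g05670, the nitrate reductase gene niaD (An08g05610), the nitrite reductase gene niiA (An08g05640), the NADP glutamate dehydrogenase gene gdhA (An04g00990) and the glutamine synthetase gene An14g01460. They were chosen for their place in the pathway and partly because niiA was known to be high after glucose was added to willow cultures. The values that chose them are those of niiA after glucose addition and on willow, so the change from willow to added glucose is given for every nitrogen gene as a description, and niiA is tested in no comparison.

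Filamentous fungi bring nitrate into the cell through a membrane transporter, reduce it to nitrite with nitrate reductase and reduce nitrite to ammonium with nitrite reductase. Ammonium is then joined to 2-oxoglutarate by NADP glutamate dehydrogenase, which gives glutamate, and to glutamate by glutamine synthetase, which gives glutamine. In Aspergillus nidulans the genes for the first steps lie side by side, are induced by nitrate and are held down by ammonium or glutamine, through the GATA factor AreA and the nitrate-specific activator NirA. The reducing power for these steps comes from carbon metabolism.

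The 6 libraries came from mycelium of strain N402, a laboratory strain, in 2 shake flask cultures (A and B) for each of 3 conditions. All cultures first grew on glucose for 48 h, and the glucose 48 h cultures were taken then. The willow 24 h cultures were washed, moved to ball-milled willow wood as carbon source and taken 24 h later, and the glucose-added cultures had 24 h on willow and then 5 h with added glucose. No genotype differs between the groups, and the nitrogen source of the medium is not given in the sources used here.

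Reads counted to genes numbered 434508 to 775667 a library, 1.46% to 3.15% of all reads, and 3720 genes had no count at all. Among the genes without a count were areA, argB and trpC. With so few of the reads counted to genes, a gene without a count is not taken to be silent. Of 6 genes listed as markers of sporulating hyphae, 2 passed the filter on low counts and none was without a count in any condition. Their summed level was 103 to 116 CPM (read counts per TMM-adjusted library size) in glucose libraries, 241 to 247 CPM in willow libraries and 150 to 243 CPM in glucose-added libraries. Most of the sum came from An09g05730, with 61.8 and 73.5 CPM in the glucose libraries against 177 and 160 CPM in the willow libraries (edgeR adjusted p = 0.0056). In deposited RPKM, scaled to all reads, its libraries overlapped, at 0.333 and 0.379 on glucose and 0.535 and 0.306 on willow. The gene An01g08900, which did not pass the filter, had 3 and 8 counts on glucose against 1 and 0 on willow. The other marker that passed the filter, An14g05350, had 39.0 and 5.92 CPM in the glucose libraries against 29.9 and 51.5 CPM in the willow libraries. It was not called (log2 fold change 0.86, edgeR adjusted p = 0.362). The markers' part in the differences below was not tested.

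Of the 5 nitrogen genes, 4 passed the filter on low counts. The exception was An14g01460, with 1 count in each glucose library, 0 in willow A, 2 in willow B, 0 in glucose-added A and 1 in glucose-added B. Every library was below the 3 counts taken as the limit of detection, which correspond to 3.55 to 8.14 CPM depending on the library. No fold is given for it, and its level in the cultures cannot be read from these counts.

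Nitrate reductase catalyses the first reduction of the pathway. The niaD gene had 1673 and 1066 CPM on glucose (libraries A and B), 130 and 48.8 CPM on willow, and 3186 and 2391 CPM after glucose addition. Both willow libraries were the lowest and both glucose-added libraries the highest, with no overlap between any of the 3 conditions in CPM. In deposited RPKM, which is scaled to all reads, counted or not, niaD had 21.5 and 13.1 in the glucose libraries and 39.4 and 14.1 in the glucose-added libraries, which overlap.

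Nitrite reductase carries out the second reduction, and niiA was the most abundant of the nitrogen genes in every library, also per length. Its level was 12866 and 9734 CPM on glucose, 1341 and 635 CPM on willow, and 18055 and 18418 CPM after glucose addition. By deposited RPKM, a level per gene length, niiA held places 18 and 25 among all genes in the glucose libraries, 304 and 690 in the willow libraries, and 9 and 18 in the glucose-added libraries.

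The transporter gene An08g05670 had 695 and 294 CPM on glucose, 59.7 and 13.6 CPM on willow, and 1056 and 1194 CPM after glucose addition. The lower willow value rests on 5 counts and the higher on 28. As for niaD and niiA, the order was willow lowest, glucose 48 h next and glucose added highest.

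The gdhA gene encodes the enzyme that forms glutamate from ammonium. It had 1238 and 1675 CPM on glucose, 260 and 81.4 CPM on willow, and 713 and 505 CPM after glucose addition. The order differed from that of the other 3 genes, since the glucose-added libraries lay between the willow and the glucose 48 h libraries, again with no overlap.

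**Figure D1:**
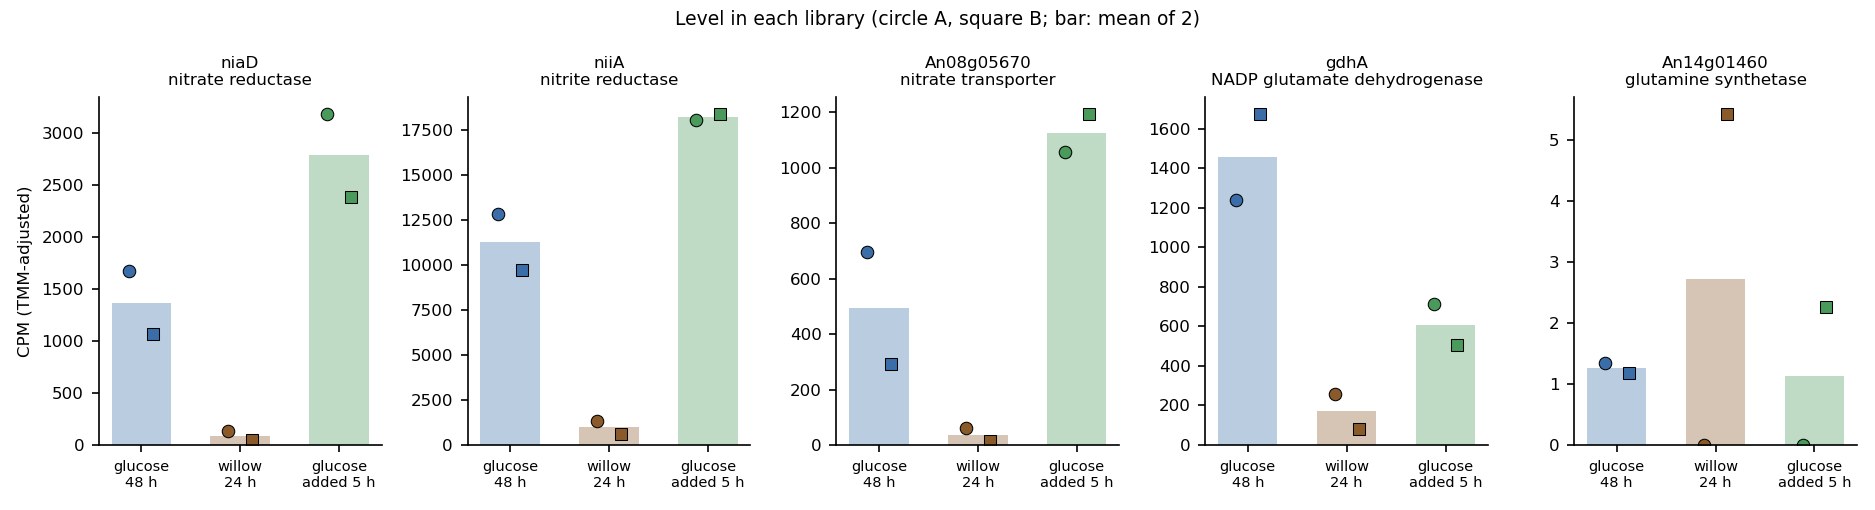
Level of the 5 nitrogen genes in each library, in CPM on a linear axis that starts at 0 and has its own scale in each panel. Circles are cultures A, squares cultures B and bars the mean of 2. The glucose-added libraries are highest for niaD, niiA and An08g05670 and intermediate for gdhA, while An14g01460 has at most 2 counts in a library.

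The first comparison asked how the nitrogen genes differed between mycelium on willow for 24 h and mycelium of the 48 h glucose cultures. The carbon source, the transfer and the age of the culture changed together here and cannot be told apart. In bulk RNA, fewer cells that express a gene and less RNA per cell cannot be told apart either. All 3 genes tested, niaD, An08g05670 and gdhA, fell on willow, where 13.5% of the 6181 genes tested across the transcriptome fell. The willow libraries lay below the glucose libraries for each of these 3 genes, as for 33.3% of genes tested.

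Mean niaD levels were 1370 ± 429 CPM on glucose and 89.4 ± 57.5 CPM on willow (mean ± SD of 2 libraries, here and wherever CPM carries an error), a 15.3-fold lower level on willow. The log2 fold change was -3.91 ± 0.46 (SE; edgeR quasi-likelihood test, adjusted p = 3.0e-07 by Benjamini-Hochberg over all genes tested). Each SE of a log2 fold change is its absolute value divided by the square root of the test's F statistic.

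For An08g05670 the means were 494 ± 284 and 36.6 ± 32.6 CPM, with a log2 fold change of -3.69 ± 0.51 (edgeR adjusted p = 3.0e-06). For gdhA they were 1457 ± 309 and 171 ± 126 CPM, an 8.53-fold lower level, with a log2 fold change of -3.07 ± 0.44 (edgeR adjusted p = 5.1e-06). The level of niiA went from 11300 ± 2215 to 988 ± 500 CPM, 11.4-fold lower, given without a test because its willow libraries helped to choose it. The median log2 fold change of the 3 genes tested was -3.69, against -0.08 over all genes tested.

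The libraries of a condition differed most on willow. Willow A exceeded willow B by 2.66-fold for niaD, 2.11-fold for niiA, 4.40-fold for An08g05670 and 3.20-fold for gdhA, where the median gene differed 1.39-fold in either direction. Without willow replicate A the log2 fold changes were -4.81 for niaD, -5.18 for An08g05670 and -4.16 for gdhA, and without willow replicate B they were -3.41, -3.06 and -2.50. The calls held in each case, so the direction did not rest on 1 willow library while the size of the change did depend on it. Without glucose replicate A the log2 fold changes were -3.59 for niaD, -2.98 for An08g05670 and -3.31 for gdhA. Without glucose replicate B they were -4.24, -4.22 and -2.88, so the size depended on the glucose library too.

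**Figure D2:**
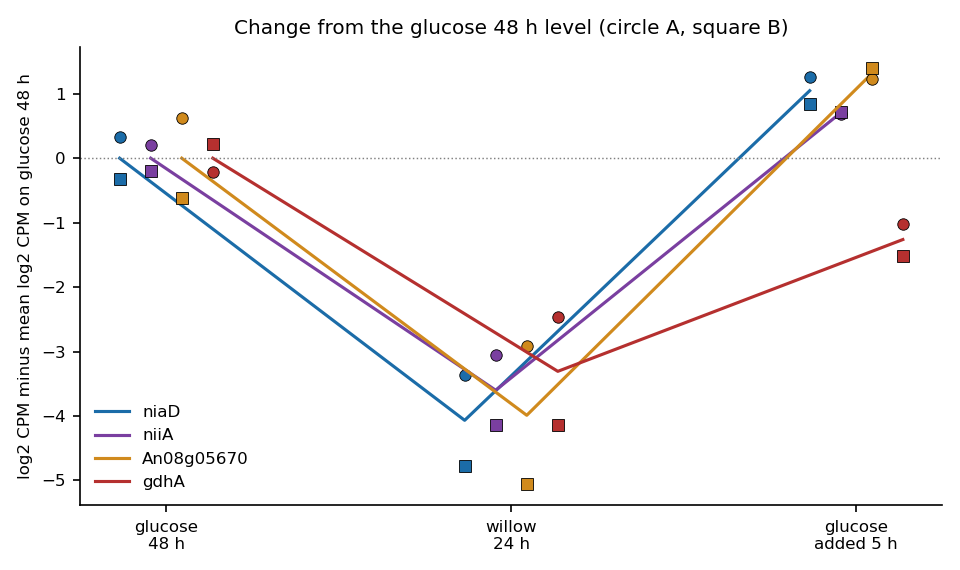
Level of each nitrogen gene with enough counts, as log2 CPM minus its mean log2 CPM on glucose 48 h. Circles are cultures A, squares cultures B, and lines join the means of 2. All 4 genes lie below 0 on willow, and after glucose addition gdhA alone among them remains below 0 in both libraries.

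The levels on willow and after glucose addition are given as a description, since this difference in niiA helped to choose the genes. Mean niaD levels were 89.4 ± 57.5 CPM in the willow cultures and 2788 ± 562 CPM in the glucose-added cultures, 31.2-fold higher in the latter. The levels of An08g05670 were 36.6 ± 32.6 and 1125 ± 97.9 CPM, 30.7-fold higher, and those of niiA were 988 ± 500 and 18237 ± 257 CPM, 18.5-fold higher. The difference in gdhA was smaller, with 171 ± 126 and 609 ± 147 CPM, 3.57-fold higher. Without willow replicate A the log2 fold changes were 5.82 for niaD, 6.35 for An08g05670, 4.84 for niiA and 2.90 for gdhA, and without willow replicate B they were 4.42, 4.23, 3.76 and 1.23, so the size depended on which willow library was used. The libraries did not overlap for these 4 genes, nor for 34.6% of all genes tested in that direction, and nothing is read from this count because this contrast chose the genes. Since every culture sampled 5 h later had received glucose, the effect of glucose and that of time cannot be told apart.

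The next comparison set the glucose-added cultures against glucose 48 h cultures and so asked where the nitrogen genes stood relative to mycelium that had never seen willow. Time on willow, the wash and transfer, the age of the culture and the added glucose changed together here and cannot be told apart. The genes differed in direction. The glutamate dehydrogenase gene gdhA was lower after glucose addition, at 609 ± 147 against 1457 ± 309 CPM, 2.39-fold lower (log2 fold change -1.25 ± 0.40, edgeR adjusted p = 0.0302), where 8.87% of genes tested were lower. The gene no longer passed when glucose replicate B (-1.02, edgeR adjusted p = 0.0876), glucose-added replicate A (-1.52, 0.0675) or glucose-added replicate B (-1.03, 0.229) was left out, and each of these fits had 1 library in one of the conditions compared.

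The transporter gene An08g05670 was higher after glucose addition than on glucose 48 h, at 1125 ± 97.9 against 494 ± 284 CPM (log2 fold change 1.19 ± 0.42, edgeR adjusted p = 0.0470), where 10% of genes tested were higher. The call was close to the threshold and was lost in 9 of 16 alternatives, among them without glucose replicate B (0.69, edgeR adjusted p = 0.353), without glucose-added replicate A (adjusted p = 0.104) or B (0.178), with total-count scaling (0.0828) and with DESeq2 (0.427). The nitrate reductase gene niaD had 2788 ± 562 against 1370 ± 429 CPM and did not pass the test (1.03 ± 0.40, edgeR adjusted p = 0.0742). It passed when glucose replicate A (1.39, adjusted p = 0.0223) or either willow library (0.0425 for A, 0.0424 for B) was left out. The level of niiA was 18237 ± 257 against 11300 ± 2215 CPM, 1.61-fold higher, given without a test. In CPM the libraries of both conditions did not overlap for niaD and An08g05670 (higher, as in 29% of genes tested) or for gdhA (lower, as in 28.8%). In deposited RPKM those of niaD, niiA and An08g05670 overlapped, and those of gdhA did not.

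The comparisons share libraries with one another: both comparisons with glucose 48 h use the same glucose libraries, and the willow and glucose-added libraries are those whose niiA values chose the genes. The choice was also made with earlier results of these libraries known.

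**Figure D3:**
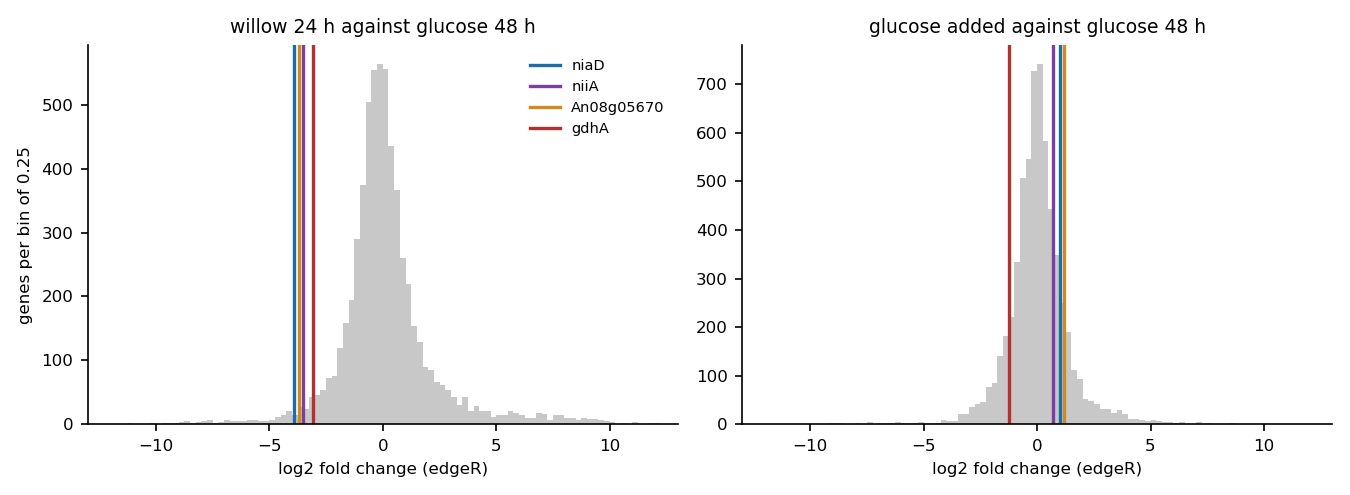
Distribution of edgeR log2 fold changes over the 6181 genes tested (grey, number of genes per bin of 0.25), for willow 24 h (left) and for glucose added (right) against glucose 48 h. Coloured lines mark the nitrogen genes, which lie between -3.91 and -3.07 on the left, and at -1.25 for gdhA and 0.69 to 1.19 for the other 3 on the right.

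Ratios of RPKM within a library do not depend on how libraries are scaled and set the genes against each other per length. The ratio of An08g05670 to niaD was 0.617 and 0.409 in the glucose libraries, 0.682 and 0.413 in the willow libraries, and 0.493 and 0.742 in the glucose-added libraries. These ranges overlapped in all 3 conditions, and the ratio spanned 1.81-fold over libraries in which niaD itself varied far more.

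For niiA the ratio was 6.06 and 7.19 with glucose, 8.12 and 10.2 with willow, and 4.46 and 6.07 with added glucose. The willow libraries were the highest, and the glucose and glucose-added libraries overlapped by a narrow margin.

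For gdhA the ratio was 1.23 and 2.62 with glucose and 3.33 and 2.78 with willow, but 0.373 and 0.352 after glucose addition. Both glucose-added libraries were below all other libraries, so that gdhA stood above niaD per length in the other 2 conditions and below it after glucose addition. An exact two-sided permutation test of 2 libraries against 2 cannot give a p under 0.333, so these ratios are given without one.

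**Figure D4:**
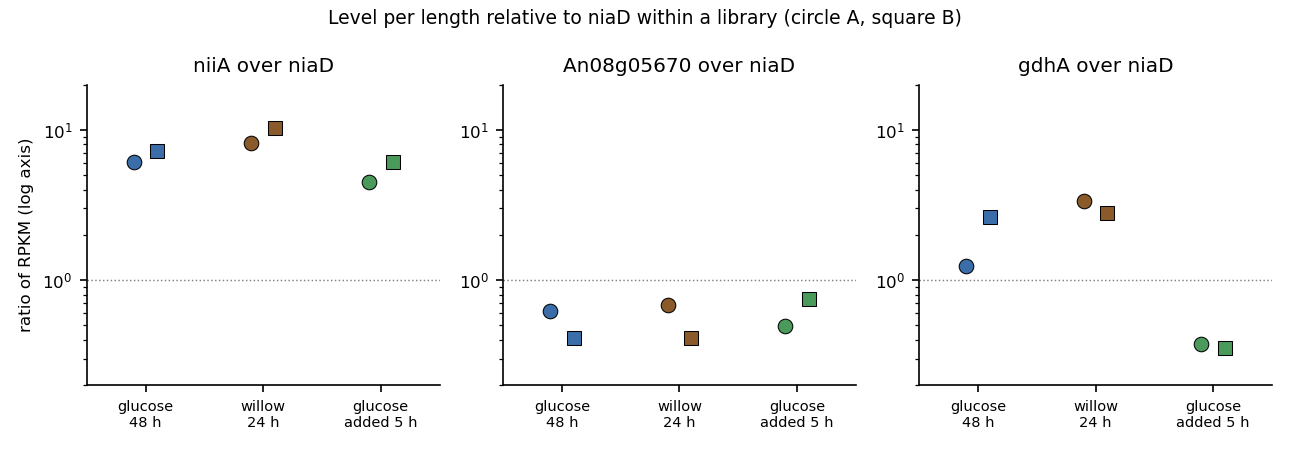
Ratio of the deposited RPKM of niiA, An08g05670 and gdhA to that of niaD in the same library, on a log axis. Circles are cultures A, squares cultures B, and the dotted line marks equal levels per length. The ratio of An08g05670 stays between 0.409 and 0.742, while that of gdhA is 0.352 to 0.373 after glucose addition and 1.23 to 3.33 elsewhere.

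In the reference annotation, niaD, niiA and An08g05670 stand in this order, with An08g05620 and An08g05630 between the first pair and An08g05650 and An08g05660 between the second. The genes between them had at most 6 counts in a library and 0 in both willow libraries. Over identifiers An08g05550 to An08g05730, 16 genes other than the nitrogen genes are listed, and 3 of them had no count. The assembly behind the counts is not named in the sources used here, so no coordinates are given.

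Of these 16 neighbours, 6 passed the filter, and neither the files nor the reference table annotate a function for them. On willow against glucose 48 h, 1 of the 6 rose and 2 fell, where 17.6% of genes tested rose and 13.5% fell. An08g05580 fell (log2 fold change -2.88 ± 0.60, edgeR adjusted p = 5.3e-04; 63.4 ± 4.15 and 8.91 ± 6.57 CPM, the latter from 2 and 5 counts), as did An08g05570 (-1.67 ± 0.49, adjusted p = 0.0106), which did not pass if glucose replicate B (0.0740) or willow replicate A (0.126) was left out. An08g05680, listed next to the transporter gene, rose by 5.20 ± 0.56 on the log2 scale, with 3.87 ± 2.13 CPM on glucose against 147 ± 2.94 CPM (adjusted p of 6.7e-08 with edgeR). The glucose level rests on 4 and 2 counts, and the change was 5.80 without glucose replicate A, 4.68 without glucose replicate B, and 2.47 and 3.87 on log2 of the deposited RPKM with pseudocounts of 1 and 0.1. For An08g05580 it was -2.22 without willow replicate A, -3.85 without willow replicate B and -1.35 on RPKM with a pseudocount of 1. An08g05680 was thus high in the condition in which the nitrogen genes were low. After glucose addition An08g05680 fell from its willow level (-3.71 ± 0.50, edgeR adjusted p = 3.1e-06), by 2.10 and 2.98 on the log2 scale of RPKM with these pseudocounts.

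From willow to added glucose, 2 of the 6 rose and 1 fell, where 17.2% of genes tested rose and 20.5% fell. An08g05580 rose (2.36 ± 0.62, edgeR adjusted p = 0.00435), a call lost without willow replicate A (0.0804) and on the deposited RPKM values with a pseudocount of 1 (0.0741). An08g05730 also rose (1.00 ± 0.38, edgeR adjusted p = 0.0419), a call lost in 5 alternatives, among them the fits without glucose-added replicate A (0.434) or without willow replicate B (0.361). An08g05700 and An08g05720 passed the test in no comparison. Against glucose 48 h, edgeR called 0 of the 6 neighbours in the glucose-added cultures, 1 (An08g05680) had an unadjusted p under 0.05, and DESeq2 called 0, where edgeR called 10% of genes tested higher and 8.87% lower.

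**Figure D5:**
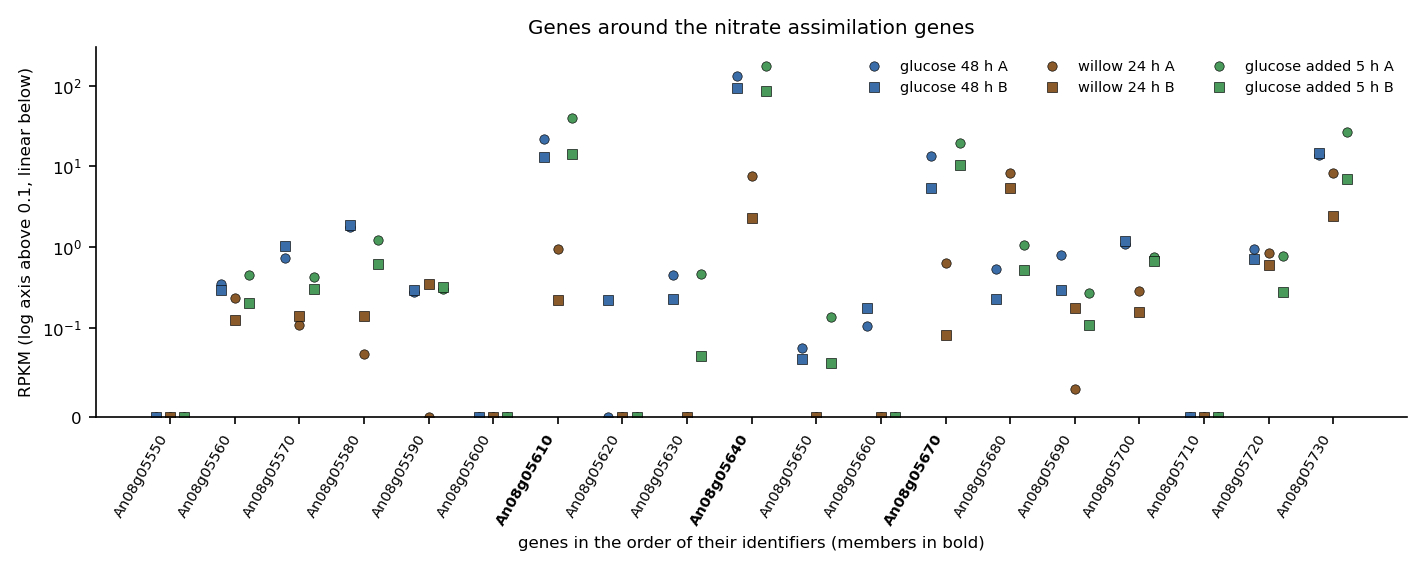
Deposited RPKM of the genes with identifiers An08g05550 to An08g05730, in the order of the identifiers, on an axis that is logarithmic above 0.1 and linear below. Circles are cultures A, squares cultures B, colours the conditions, and nitrogen genes are in bold. The 4 genes between niaD, niiA and An08g05670 lie below 0.5 RPKM in every library, and An08g05680 is highest on willow.

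Likeness of pattern was measured as Pearson's r of log2 CPM over the 6 libraries, among genes with a mean of at least 1 RPKM in some condition. The 6 libraries come from 3 conditions and are not independent points, so r is given as a description. They include the willow and glucose-added libraries whose niiA values chose the genes. Nothing further is read from r or from an order of genes by r. The gene most like niaD was An11g10110 (r = 0.998), at 979 ± 84.5 CPM with glucose, 344 ± 65.0 CPM with willow and 1311 ± 33.3 CPM with added glucose. The next were niiA (r = 0.997) and An05g00080 (r = 0.995). The latter had 61.8 ± 1.94 CPM with glucose, 32.8 ± 7.96 CPM with willow and 73.3 ± 4.26 CPM with added glucose. A high r thus does not mean a change of similar size.

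An11g10110 was also the gene most like niiA (r = 0.998), followed by niaD and by An01g03570 (r = 0.995). For An08g05670 they were An08g07220 (r = 0.994), An08g01650 (r = 0.992) and niaD (r = 0.991). So niaD, niiA and An08g05670 took places 2 to 14 in each other's order of 3839 genes. The glutamate dehydrogenase gene took places 561 to 674 in theirs, and its own closest patterns were An03g01090 (r = 0.993), An14g00050 (r = 0.991) and An07g03570 (r = 0.989).

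Other nitrogen genes could be listed only where the reference table gives a symbol. Of the nitrogen symbols searched, areA alone was found besides the nitrogen genes above, and it had no count in any library. The list for amino acid synthesis and its regulation held 7 further genes, of which 4 passed the filter. The symbol cpcA is given to a second entry in it, An01g07890, which had no count in any library.

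On willow against glucose 48 h, 2 of these 4 rose and 1 fell, where 17.6% of genes tested rose and 13.5% fell. The risers were the isopropylmalate dehydrogenase gene leu2B of leucine synthesis (3.02 ± 0.44, edgeR adjusted p = 7.2e-06) and cpcA (An01g07900), which encodes the activator of amino acid synthesis genes. For cpcA the levels were 190 ± 29.4 and 402 ± 83.3 CPM (1.08 ± 0.33, edgeR adjusted p = 0.0152). The gene did not pass once glucose replicate B (adjusted p = 0.115) or willow replicate B (0.125) was left out or with total-count scaling (0.130), and on the deposited RPKM values with a pseudocount of 1 the estimate had the opposite sign (-0.045, limma-trend adjusted p = 0.937). The change of leu2B was 0.93 and 1.69 on log2 of the RPKM with pseudocounts of 1 and 0.1, and was called with both. The second isopropylmalate dehydrogenase gene, leu2A, fell (-3.01 ± 0.44, edgeR adjusted p = 6.4e-06).

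After glucose addition leu2A stood at 92.0 ± 30.8 CPM, below its 210 ± 59.7 CPM on glucose 48 h. It was called lower, by -1.16 ± 0.36 on the log2 scale (adjusted p of 0.0256 with edgeR). The call did not hold without glucose replicate A (-0.84) or without glucose-added replicate B (-0.89). Nor did it hold with DESeq2 (adjusted p = 0.0858) or on RPKM with a pseudocount of 0.1 (limma-trend adjusted p = 0.0536). The other 3 did not pass the test, and of all genes tested 10% were higher and 8.87% lower. From willow to added glucose, 1 of the 4 rose and 2 fell, where 17.2% of genes tested rose and 20.5% fell. Here leu2A rose (1.84 ± 0.45, edgeR adjusted p = 0.00242), a call lost without glucose-added replicate A (0.0519). In that comparison leu2B fell (-3.83 ± 0.49, edgeR adjusted p = 1.5e-06; -1.25 and -2.71 on RPKM with pseudocounts of 1 and 0.1), as did cpcA (-1.16 ± 0.34, adjusted p = 0.00915), which did not pass without glucose-added replicate A (0.180) or without willow replicate B (0.0719), nor on the deposited RPKM values with pseudocounts of 1 (0.522) and 0.1 (0.516). The gene argA passed the test in no comparison.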

How the data were processed

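RNA was depleted of ribosomal RNA and sequenced as SOLiD paired-end reads, per the labels' protocols. Per the submitters' processing notes HTSeq was used, in a version that like the aligner and genome build is not given in the sources used here. For each library the authors deposited counts of reads per gene and RPKM values, per the file headers. The deposited RPKM values are scaled to all reads, uncounted ones included (with that total, 100% of lengths of genes with over 20 counts were whole numbers to within 0.01 bp). Another 5 entries that name no gene (96.9% to 98.5% of reads, 58.4% to 75.7% multiply aligned, 0.359% to 1.10% in more than one gene) entered neither library sizes nor tests. Near-identical or overlapping genes can lose reads there.

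The tests on counts used edgeR 4.0.16 and R 4.3.3 (TMM, filterByExpr with a minimum count of 10 and a minimum total of 15, glmQLFit and glmQLFTest, two-sided, threshold 0.05), with 3 group means in one fit and 3 residual degrees of freedom. The procedure was tested on simulated data with the same dispersion for all genes and few changed genes, which does not test the scaling of these libraries. The design text calls the cultures duplicates. Counts of the 2 libraries of a condition differed beyond sampling noise (chi-square per degree of freedom 6.81 to 11.5). Alternatives were other scalings, filters, samples and a block, DESeq2 1.42.0, and limma-trend 3.58.1 on log2(RPKM + 1) and log2(RPKM + 0.1). Symbols came from a RefSeq table (assembly ASM285v2), which holds all 5 nitrogen genes and gives a symbol to 2. It holds no product descriptions, so planned searches of them, of related proteins and of promoters were not run. By rule, the genes named are the nitrogen genes, the 3 most alike for each, and genes of the lists that passed the filter. Listed genes below it (areA, argB, trpC, An01g07890, An01g08900 and the 4 genes between niaD, niiA and An08g05670) are named for their counts or levels. The nitrogen genes and lists were chosen with earlier results of these data known.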

Additional observations from a re-analysis of the deposited data

How the results depend on the processing

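Under 16 alternatives, the 3 tested nitrogen genes (niaD, An08g05670, gdhA) were lower on willow than on glucose 48 h and called in every one, and no log2 fold change of the 4 nitrogen genes changed sign in any comparison. In the glucose-added against glucose 48 h comparison 2 of these 3 were called, and 1 with upper quartile or total-count scaling, at least 50 counts in 2 libraries, DESeq2 or either RPKM pseudocount, and 0 to 3 without 1 library. The log2 fold change of An08g05670 there was 1.17 with upper quartile scaling (adjusted p = 0.0527), 1.03 with total counts, 1.16 with at least 50 counts (0.0664), 1.21 with DESeq2, 0.68 with RPKM + 1 (0.402) and 0.75 with RPKM + 0.1 (0.489). Without 1 library it ranged from 0.69 to 1.94, that of gdhA from -1.52 to -1.02 and that of niaD from 0.73 to 1.39. On the deposited RPKM values (pseudocounts 1 and 0.1) niiA was at -4.39 and -4.69 on willow and at 0.15 and 0.15 after glucose addition, both against glucose 48 h; the cause was not tested. There cpcA was at -0.045 and -0.056 on willow against glucose 48 h.

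Same-lettered libraries are not said to share a batch, and their A minus B differences correlated at -0.01, 0.12 and 0.17 between conditions. With the replicate block, 3 of 3 nitrogen genes were called for glucose added against glucose 48 h, 2 higher and 1 lower. Of the 6181 genes tested, 1292 were called with the block in this comparison, 695 higher and 597 lower. There niaD was at 1.05 (edgeR adjusted p = 0.0208).

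Over all genes, 1926 were called on willow and 1168 after glucose addition against glucose 48 h, and 2336 between willow and added glucose. With at least 50 counts in 2 libraries and fewer genes tested these were 1056, 769 and 1297. On RPKM + 1 they were 758 after glucose addition against glucose 48 h (735 with RPKM + 0.1) and 1396 between willow and added glucose. Without 1 library they ranged from 1618 to 2037, 631 to 1439 and 1496 to 2501. Higher genes were 56.5% of calls on willow with TMM and 35.4% with total counts, which moved the median log2 fold change by -0.43. Upper quartile scaling moved it by -0.12. RPKM moved it by -0.35 and -0.93, with 21.3% and 19.6% higher. Shares after glucose addition were 53.1% with TMM and 24.1% with RPKM + 1 against glucose 48 h, and 45.6% and 63.1% against willow. Low willow counts, down to 5 for An08g05670, limit the size of its change, and An14g01460 was below the limit throughout.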
